A study of Mus musculus with 4 samples.

Results

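The genes described here encode the nuclear part of the mitochondrial respiratory chain and the ATP synthase, together with close paralogues and some assembly factors that carry the same symbol stems. They were chosen by symbol alone, as the protein-coding rows that begin with Nduf, Uqcr, Atp5 or Cox followed by a digit between 4 and 8, or that read Sdha, Sdhb, Sdhc or Sdhd, leaving out symbols with -ps. Of the 78028 rows of each count table, 117 began in this way, 16 were left out for -ps and 4 as pseudogenes or not shown to be protein-coding, and 97 were kept as members. Of those 4, Ndufb11b had no gene type in the annotations used and held 171, 86, 102 and 63 counts. Of these, 77 are structural subunits, 10 are paralogues or tissue-restricted isoforms, 9 are assembly factors and 1 is an inhibitor of the ATP synthase. The label of subunits therefore holds for most of the members and not for all.

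The chain passes electrons from NADH (complex I) or succinate (complex II) through ubiquinone to complex III, and from there through cytochrome c to oxygen at complex IV. The proton gradient built on the way drives the ATP synthase (complex V). Complexes I, III, IV and V are built from subunits of both genomes, so the catalytic subunits of complex IV and the proton channel of complex V come from mitochondrial DNA, while complex II is wholly nuclear. Some pluripotent stem cells are known for leaning on glycolysis, and adult hepatocytes are rich in mitochondria.

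The 4 libraries come from separately generated cultures of 1 mouse line, the embryonic stem cells E14TG2a, differentiated with A-HIC (a hepatic-inducing cocktail) and labelled hepatocyte-like cells. They form 1 group, with no untreated cells among them. Polyadenylated RNA was sequenced from both ends without strand information, to between 29.5 and 40.2 M counts a library. No library had a count in the 37 rows of mitochondrial DNA, so the 13 subunits encoded there are not measured.

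The label was checked against markers, with levels in TPM, which scales counts for transcript length and library size. Of 8 hepatocyte markers Ttr alone reached 1 TPM in each library, Fabp1 and Cyp2e1 were at 0 counts throughout, and Alb had 11, 171, 0 and 12 counts. All 6 pluripotency markers and all 3 parietal endoderm markers reached 1 TPM in each library. The summed level of the pluripotency markers was 4376, 2321, 3970 and 2968 TPM in libraries 1 to 4. That of the parietal endoderm markers was 2676, 7807, 3062 and 5742 TPM, and that of the hepatocyte markers 3.71, 30.02, 4.51 and 13.2 TPM. By these sums library 1 held the most pluripotency RNA and the least of both other kinds, and library 2 the reverse. Single markers did not all follow the sums. Pou5f1 (605 and 627 TPM in libraries 1 and 3) and Sox2 (88.9 and 92.4 TPM) were highest in library 3, and the other pluripotency markers in library 1. Of the hepatocyte markers, Cps1 was highest in library 1, at 0.387 TPM, and Alb lowest in library 3. In bulk RNA, fewer cells of a type and less RNA per cell cannot be told apart.

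Sequences are shown where they bear on what the counts can resolve. The 3 genes Atp5mc1, Atp5mc2 and Atp5mc3 encode the c subunit, which forms the rotor ring of the ATP synthase, with different mitochondrial leader peptides. Their last 75 codons encode the same residues, and 57 of these 225 bases differ between at least 2 of the 3 genes, marked here in capitals (coding strand of GENCODE M21 transcripts, build GRCm38).
Atp5mc1 (chromosome 11, minus strand): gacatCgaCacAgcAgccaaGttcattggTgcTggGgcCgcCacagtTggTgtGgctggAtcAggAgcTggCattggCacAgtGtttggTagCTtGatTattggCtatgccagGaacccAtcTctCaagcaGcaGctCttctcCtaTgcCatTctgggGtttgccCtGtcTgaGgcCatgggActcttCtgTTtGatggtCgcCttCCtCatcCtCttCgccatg
Atp5mc2 (chromosome 15, minus strand): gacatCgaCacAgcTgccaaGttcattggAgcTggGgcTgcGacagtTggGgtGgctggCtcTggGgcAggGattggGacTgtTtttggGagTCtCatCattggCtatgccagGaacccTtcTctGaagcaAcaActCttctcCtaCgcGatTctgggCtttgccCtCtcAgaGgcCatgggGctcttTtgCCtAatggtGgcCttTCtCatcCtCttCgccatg
Atp5mc3 (chromosome 2, minus strand): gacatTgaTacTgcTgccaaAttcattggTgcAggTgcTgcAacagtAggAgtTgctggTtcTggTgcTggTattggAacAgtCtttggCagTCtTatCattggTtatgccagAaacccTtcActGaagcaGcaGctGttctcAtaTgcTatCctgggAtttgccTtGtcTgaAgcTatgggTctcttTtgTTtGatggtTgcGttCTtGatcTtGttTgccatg

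A second set concerns Ndufs5, a small subunit of complex I on the outer face of the inner membrane, and Ndufs5-ps, a processed copy of it on another chromosome. Over the coding sequence 316 of 318 bases are the same. The stretch from coding base 49 to 138 holds both differences, in capitals.
Ndufs5 (chromosome 4, minus strand): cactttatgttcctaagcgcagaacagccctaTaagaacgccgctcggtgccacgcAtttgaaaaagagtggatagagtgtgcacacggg
Ndufs5-ps (chromosome 16, plus strand): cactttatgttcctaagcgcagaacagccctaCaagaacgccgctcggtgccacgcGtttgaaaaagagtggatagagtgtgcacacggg

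With 1 TPM in every library as the line for expression, 93 of the 97 members were expressed (95.9%), against 12425 of 19887 protein-coding genes (62.5%). The median member stood at 150 TPM, against 26.6 TPM for the expressed protein-coding genes and 7.05 TPM for all protein-coding genes. All 77 structural subunits were expressed, and 58 of them (75.3%) averaged 100 TPM or more, a level that 16.4% of the expressed protein-coding genes reached. As a share of all counts the members held 0.899%, 0.765%, 0.865% and 0.805% in libraries 1 to 4, a mean of 0.834% ± 0.0604 (SD, n = 4). The share was largest in library 1 and smallest in library 2.

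The complexes differed in level. The median structural subunit of complex I stood at 119, 118, 117 and 111 TPM in libraries 1 to 4 (116 ± 3.75, SD, n = 4), that of complex II at 190, 194, 194 and 198 TPM (194 ± 3.23) and that of complex III at 219, 207, 210 and 213 TPM (212 ± 4.91). In complex IV it was 506, 403, 462 and 444 TPM (454 ± 42.7), and in complex V it was 380, 370, 426 and 386 TPM (390 ± 24.7). Complex I was the lowest and complex IV the highest in each library, also with the union of all exons or the longest coding transcript as length. Complex V moved with the length used: its median over subunits was 399 TPM, and 222 TPM with the union of exons, where it lay below complex III in libraries 1 and 4.

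**Figure D1:**
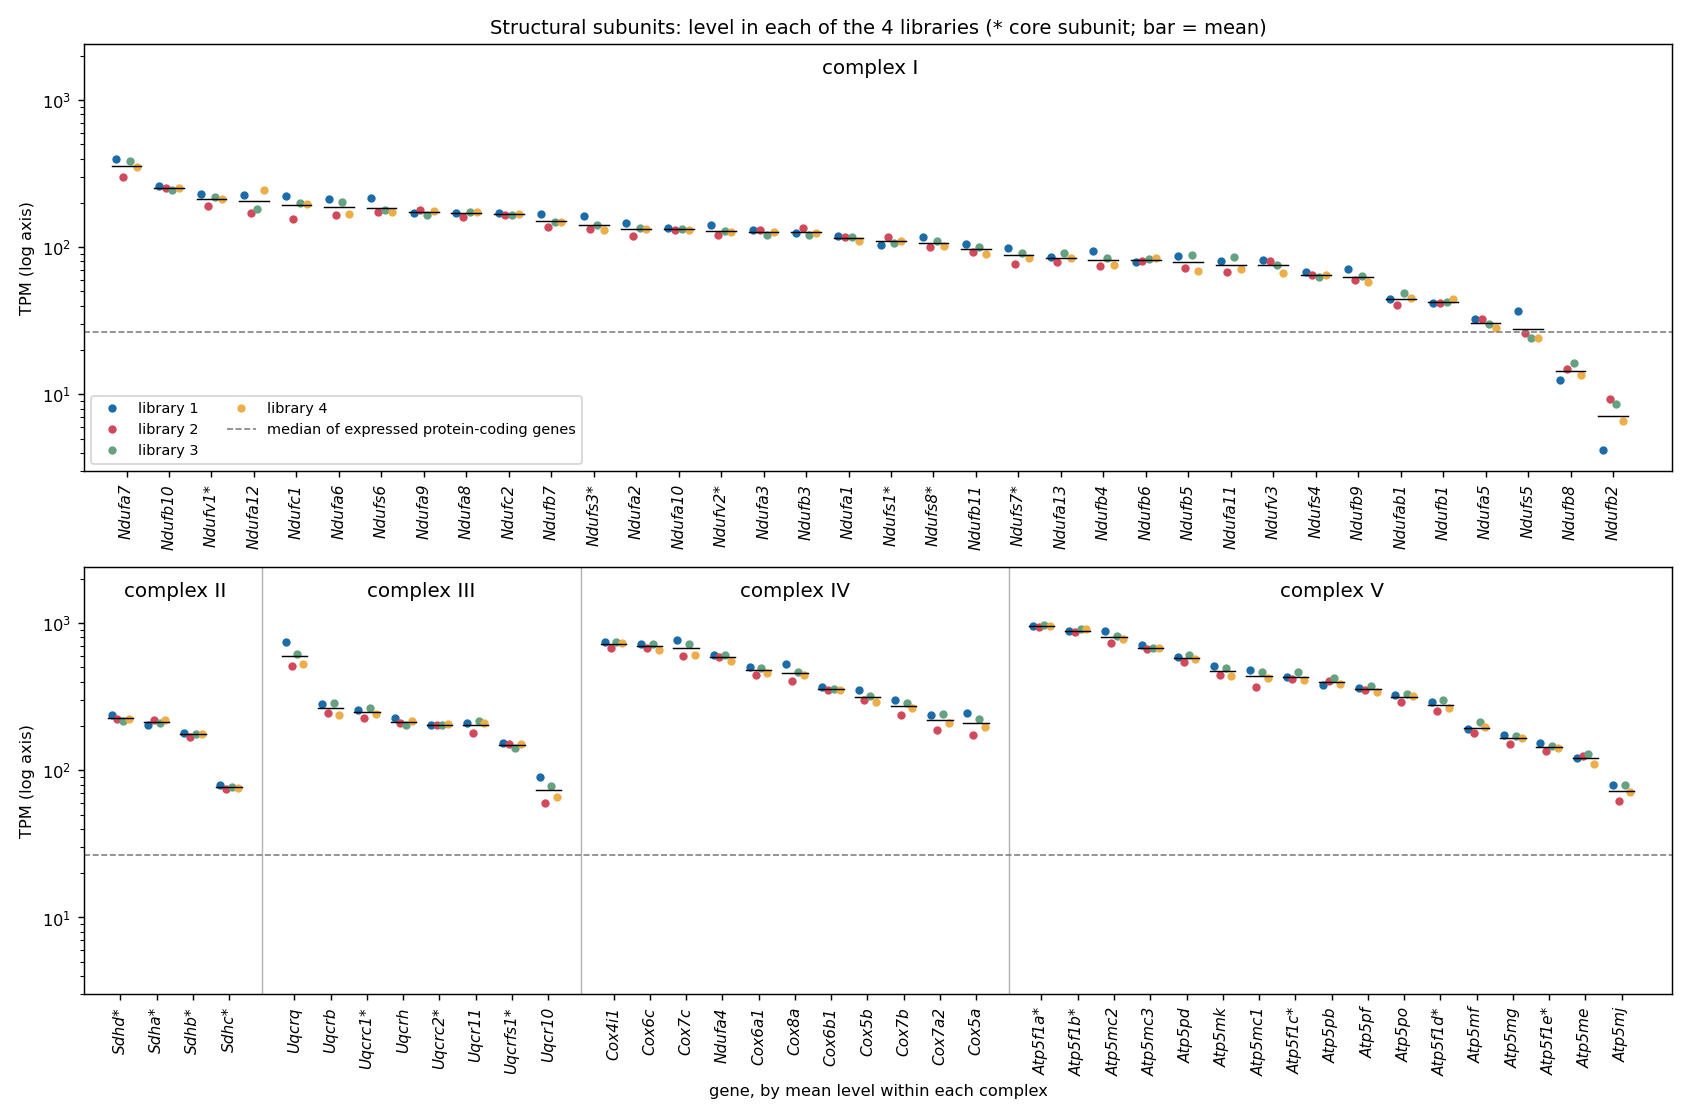
Level of the structural subunits in TPM (log axis), by complex and ordered by mean; each dot is 1 of the 4 libraries, the bar is their mean, an asterisk marks a core subunit and the dashed line is the median of the expressed protein-coding genes (26.6 TPM). All but 2 of the subunits drawn, Ndufb8 and Ndufb2, have means above the line, and complex IV has the highest median.

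In complex I the core subunits described here belong to the arm that takes electrons from NADH. Ndufv1, which binds NADH and the flavin, had 228, 189, 218 and 211 TPM in libraries 1 to 4 (211 ± 16.4, SD, n = 4), with library 1 the highest and library 2 the lowest. Ndufs3 averaged 142 ± 14.6 TPM, Ndufv2 129 ± 9.15 TPM and Ndufs1, which holds several iron-sulfur clusters, 110 ± 5.58 TPM. Ndufs8 and Ndufs7, which carry the clusters nearest the quinone, averaged 107 ± 7.57 and 87.9 ± 9.87 TPM.

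The 30 supernumerary subunits of complex I, which surround the core and have no catalytic centre, spread further, between 7.16 and 358 TPM with a median of 106 TPM. The highest, Ndufa7, had 400.1, 298, 383 and 350.3 TPM, and Ndufb10 followed with 262, 252, 246 and 252 TPM. Library 1 was the highest for both. The lowest, Ndufb2, had 33, 71, 51 and 52 counts, or 4.21, 9.25, 8.57 and 6.62 TPM (7.16 ± 2.26). Ndufb8 and Ndufs5, chosen after their values were seen, were the next lowest with 14.3 ± 1.64 and 27.8 ± 6.08 TPM. Beyond these 3 genes, the other 74 structural subunits of the 5 complexes averaged 30 TPM or more.

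The 3 low subunits were set beside the genes that could share their reads. Of the Ndufb2 transcript, 50.3% lies under exons of the genes Gm16272 and Gm42420 in GENCODE M21, which held 9, 17, 2 and 11 counts and 0 counts in every library. Of the Ndufb8 transcript, 19.7% lies under exons of Gm20538, which held 0 counts in every library. Ndufs5 has no such neighbour, but it held 333, 230, 167 and 219 counts, against 1295, 1012, 908 and 1107 counts for its copy Ndufs5-ps, which differs at the 2 capital bases shown above. The copy thus held 82.0% of their summed counts, and the counts of the pair cannot be assigned with certainty to either. The sources used here do not say how reads with several alignments or several genes were counted, and the part of it in these levels was not tested.

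The same comparison was made for all 77 structural subunits, taking as a copy any other locus with an alignment of 150 bases or more at 95% identity or more. There were 43 copies of 23 subunits, and 54 subunits had none. Copies held over 5% of the summed counts in 10 subunits and over 50% in Ndufs5 alone. Ndufa12, a supernumerary subunit of complex I, had 2185, 1617, 1346 and 2388 counts, and its copy Ndufa12-ps had 1703, 1532, 1287 and 884 counts. These rows did not move together: library 4 was the highest for Ndufa12 and the lowest for the copy. Cox7c, a complex IV subunit, had 7129, 5484, 5069 and 5687 counts, against 1951, 1295, 1137 and 1613 counts for its copies. For Ndufb4 the copy is another member, Ndufb4c, whose 390 bases all match it, so the 33, 26, 26 and 18 counts of Ndufb4c are uncertain. Ndufb4b had 39, 31, 21 and 24 counts and no length in the annotation, so it has no TPM.

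**Figure D2:**
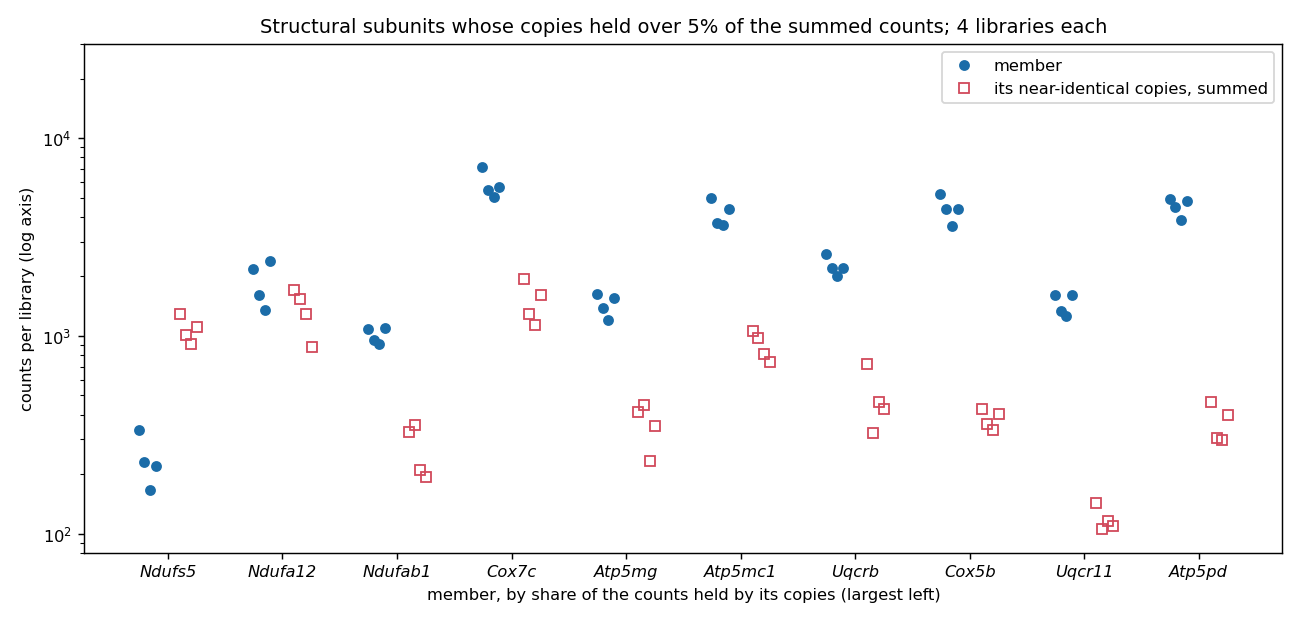
Counts per library (log axis) of the 10 structural subunits whose near-identical copies held over 5% of the summed counts; filled circles are the member and open squares the sum over its copies, 4 libraries each. In Ndufs5 the copy lies above the member in all 4 libraries, and in Ndufa12 the ranges overlap.

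The 8 Nduf assembly factors, which build complex I and are no part of the finished enzyme, had a median of 32.4 TPM and ranged from 16.8 to 62.5 TPM, below the median of the structural subunits (187 TPM). All 8 were expressed. Of 7 further complex I assembly genes measured, all were expressed, from Nubpl, which delivers iron-sulfur clusters, at 12.5 ± 1.74 TPM to Foxred1 at 61.6 ± 8.18 TPM.

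Complex II oxidises succinate in the citric acid cycle. Its flavoprotein Sdha had 202, 219, 210 and 218 TPM, and its iron-sulfur protein Sdhb had 178, 170, 177 and 178 TPM. The membrane anchors stood apart from each other: Sdhc averaged 76.5 ± 1.98 TPM and Sdhd 226 ± 9.43 TPM, with no overlap between libraries. All 4 complex II assembly genes were expressed, from Sdhaf3 at 3.16 ± 0.138 TPM to Sdhaf2, which helps attach the flavin, at 113 ± 2.90 TPM.

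In complex III the large core proteins Uqcrc1 and Uqcrc2 averaged 247 ± 16.9 and 204.5 ± 2.44 TPM, and the Rieske iron-sulfur protein Uqcrfs1 149 ± 4.79 TPM. The highest member was the small subunit Uqcrq with 746, 509, 618 and 531 TPM, followed by Uqcrb at 264 ± 25.7 TPM. This order rests on the length used. With the union of exons Uqcrq averaged 221 TPM and Uqcrb 268 TPM, and with the longest coding transcript 184 and 303 TPM. The lowest member was Uqcr10 with 90.7, 60.2, 77.8 and 65.4 TPM. In both Uqcrq and Uqcr10 library 1 was the highest and library 2 the lowest. Cytochrome c1 (Cyc1), the remaining nuclear subunit with a haem and outside the symbol rule, averaged 244 ± 15.4 TPM. All 6 complex III assembly genes were expressed, from Lyrm7, which handles the Rieske protein, at 2.49 ± 0.300 TPM to Uqcc3 at 46.6 ± 2.16 TPM.

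The widely expressed subunits of complex IV, which surround the mitochondrially encoded catalytic core, all exceeded 200 TPM on average by the length used here. Cox4i1, which binds adenine nucleotides, had 745, 679, 749 and 734 TPM, and Cox6c had 720.3, 680.3, 723 and 659 TPM. The lowest of the 11 was Cox5a at 210 ± 31.3 TPM. With the union of exons as length, Cox5a averaged 107 TPM and Cox6c 163 TPM. Of 20 complex IV assembly genes 17 were expressed, with Cox17, a copper chaperone, the highest at 277 ± 48.0 TPM. Sco2 and Pet117 had 0 counts in every library and Cox20 1, 0, 2 and 2 counts. In the annotation, 100% of the Sco2 and Pet117 transcripts and 83.2% of the Cox20 transcript lie under exons of other genes.

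Complex V held the most abundant members. The alpha and the catalytic beta subunit of its head, Atp5f1a and Atp5f1b, had 950.5, 941, 977 and 954 TPM and 879, 865, 911 and 906 TPM. The central stalk was lower, with Atp5f1c at 430.2 ± 24.6 TPM, Atp5f1d at 277 ± 23.3 TPM and Atp5f1e at 144 ± 7.82 TPM. The lowest members were Atp5mj, a small membrane subunit, at 72.7 ± 8.21 TPM and Atp5if1, the protein that blocks ATP hydrolysis when the gradient fails, at 104 ± 8.37 TPM. All 3 ATP synthase assembly genes were expressed, with Tmem70 at 49.3 ± 3.75 TPM the highest and Atpaf1 at 28.6 ± 1.48 TPM the lowest.

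Where a subunit has a second gene, the 2 were compared as a log2 ratio of TPM + 0.1 in each library, an addition that understates ratios of low genes. With 4 libraries the smallest p of the exact two-sided sign-flip test is 0.125, so no pair can pass 0.05. All 11 pairs gave that exact p of 0.125, since each ratio had the same sign in 4 of 4 libraries. What can be read is the size and its spread.

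The isoforms known from heart and skeletal muscle were low. Cox6a2 had 22, 4, 6 and 16 counts and Cox7a1 44, 26, 10 and 14 counts. Their log2 ratios to the ubiquitous Cox6a1 and Cox7a2 were -8.90 ± 0.907 and -6.34 ± 0.816 (SD, n = 4). Cox8b had 0 counts in every library, while its partner Cox8a had 460 ± 53.1 TPM. Set at 3 counts per library, the limit that a count of 0 allows, Cox8b was at least 725-fold lower than Cox8a. This limit takes each count as 1 read and covers counting error only, as does the interval below for Cox8c. Cox4i2, the lung isoform of subunit 4 that responds to low oxygen, had 96, 33, 62 and 40 counts, and its log2 ratio to Cox4i1 was -7.28 ± 0.680. Libraries 1 and 3 were above libraries 2 and 4 in Cox4i2. Ndufa4l2, a hypoxia-induced relative of the complex IV subunit Ndufa4, had 26.6, 29.3, 18.9 and 14.3 TPM, with a log2 ratio of -4.77 ± 0.430 to Ndufa4.

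Of the isoforms known from testis, Cox7b2 and Cox8c were low and Cox6b2 was not. Cox7b2 had 20, 14, 16 and 18 counts, and its log2 ratio to Cox7b was -7.05 ± 0.103. Cox8c had 1, 2, 0 and 2 counts, which per length is 0.0368% of Cox8a (exact 95% Poisson interval 0.0120% to 0.0860%). Cox6b2 had 2456, 1212, 1536 and 1848 counts, or 365, 184, 300.2 and 274 TPM, against 370.5, 354, 357 and 350.3 TPM of its ubiquitous partner Cox6b1. The testis isoform was nearly level with its partner in library 1 and lowest in library 2, while Cox6b1 hardly varied. Their coding sequences align over 251 bases with 163 the same (64.9%), and neither had a near-identical copy.

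The mean log2 ratio of Cox6b2 to Cox6b1 was -0.39 ± 0.393 (SD, n = 4), lower in 4 of 4 libraries. Its size depended on the length used, at -1.05 without length (CPM, counts scaled to library size) and -1.70 with the union of exons. Cox6b2 made up 43.3% ± 6.55 of the pair by TPM, 32.7% ± 5.77 by CPM and 23.8% ± 4.69 with the union of exons. Over the libraries Cox6b2 stood in the same order as the summed pluripotency markers, with library 1 the highest, then 3, 4 and 2. The Cox6b2 transcript has 391 nt, and 46 other protein-coding genes under 500 nt, at 10 CPM or more, had medians in the same order. As deviations of log2(CPM + 1) from the 4-library mean, these were 0.19, -0.17, 0.07 and -0.07 in libraries 1 to 4. The part of the cell mixture or of transcript length in this order was not tested.

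The last 3 pairs were of genes that are both widely expressed. Cox7a2l, which takes part in joining complexes III and IV into supercomplexes, had 175, 162, 163 and 149 TPM, and Cox7a2 had 237, 187, 241 and 208 TPM. The log2 ratio was -0.42 ± 0.157 and turned to 0.35 when length was left out. Of the c subunit genes shown above, Atp5mc1 made up 22.7% ± 1.30, Atp5mc2 41.8% ± 0.514 and Atp5mc3 35.5% ± 1.61 of their summed TPM (SD, n = 4). The log2 ratio of Atp5mc1 to Atp5mc3 was -0.65 ± 0.148. That of Atp5mc2 to Atp5mc3 was 0.23 ± 0.0781, and turned to -0.46 by CPM, -0.08 with the union of exons and -0.48 with the longest transcript, so the order of these 2 genes rests on the length. Atp5mc1 held 4960, 3717, 3658 and 4364 counts, against 1061, 979, 813 and 741 counts of its copy Gm10039. The copies of Atp5mc2, Gm10231 and Gm10175, match all 441 bases of its transcript. They held 14, 9, 22 and 15 counts and 0 counts in every library, so the counts of Atp5mc2 cannot be assigned with certainty either.

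**Figure D3:**
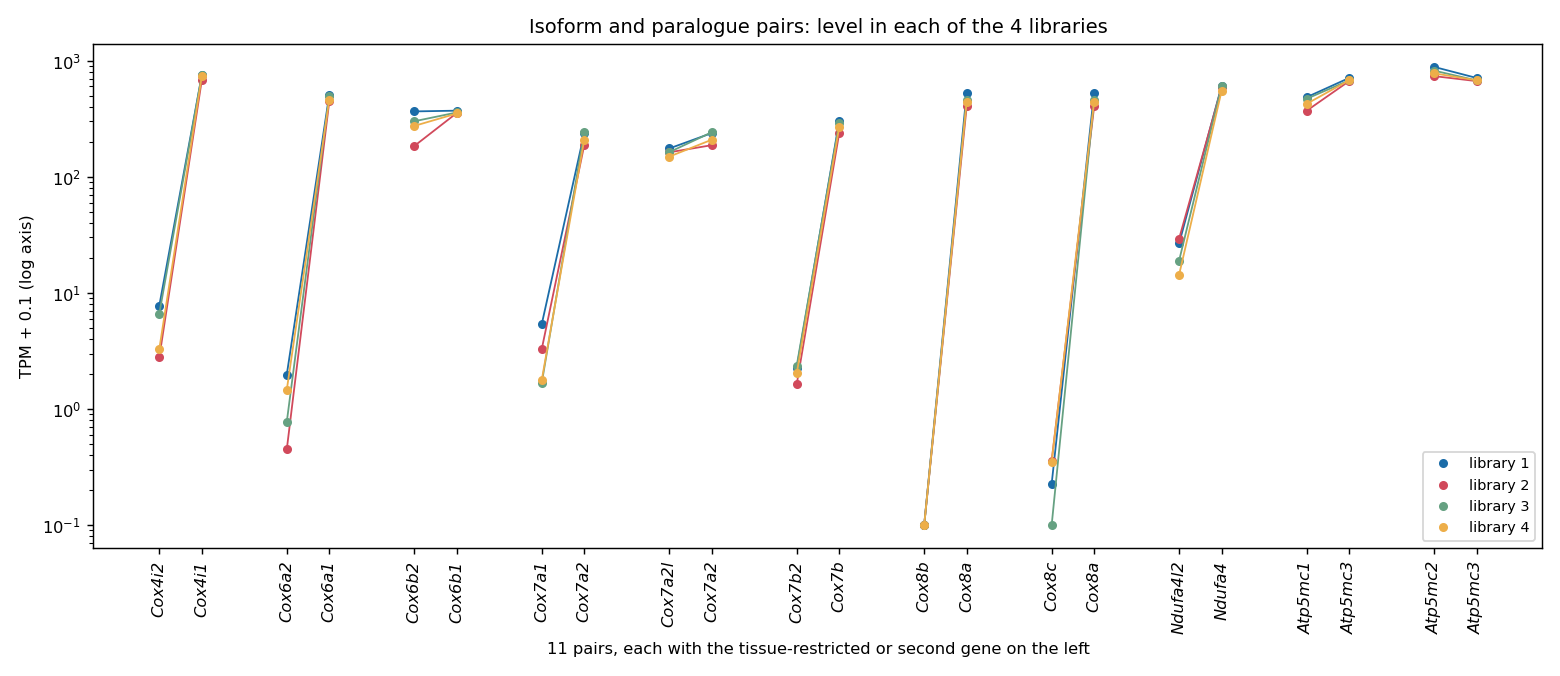
Level (TPM + 0.1, log axis) of both genes of 11 isoform or paralogue pairs, with the tissue-restricted or second gene on the left; lines join the genes within each of the 4 libraries. The tissue-restricted isoforms lie far below their partners except Cox6b2, which reached 365 TPM in library 1.

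The spread between libraries was small for most members. The SD of log2(CPM + 1) had a median of 0.144 over the 90 members with a mean of 1 CPM or more, against 0.171 over 13066 protein-coding genes at the same minimum. At 10 CPM or more the medians were 0.134 for 83 members and 0.148 for 9606 protein-coding genes. These SDs use CPM without TMM, the scaling of library sizes in the edgeR tests. With TMM scaling the median over the 90 members was 0.106, and the protein-coding genes were not recomputed. The biological coefficient of variation fitted per gene by edgeR had a median of 0.129 over members and 0.185 over all 17398 genes in the fit. Those genes were neither limited to protein-coding ones nor matched to the members in level. The cultures were separate per the labels, so these spreads are between cultures.

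At 10 CPM or more, the steadiest members by CPM without TMM scaling were large core subunits. The TMM factors were 1.03, 0.962, 1.02 and 0.987 in libraries 1 to 4. The ranks below were not recomputed with them and may depend on the scaling. Sdha had 267, 267, 270.4 and 272 CPM in libraries 1 to 4, an SD of 0.0144 on the log2 scale, and 0.187% of the protein-coding genes at 10 CPM or more had a smaller one. Ndufs1 had 123, 127, 123 and 123 CPM. The most variable was Cox6b2 with 65.0, 30.2, 52.0 and 46.1 CPM (SD 0.454), more than 96.1% of those genes. Next came Ndufaf3, an assembly factor of complex I, with 15.1, 7.47, 11.2 and 10.3 CPM, and Uqcrq with 138, 86.7, 111 and 92.6 CPM. All 3 were highest in library 1 and lowest in library 2.

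**Figure D4:**
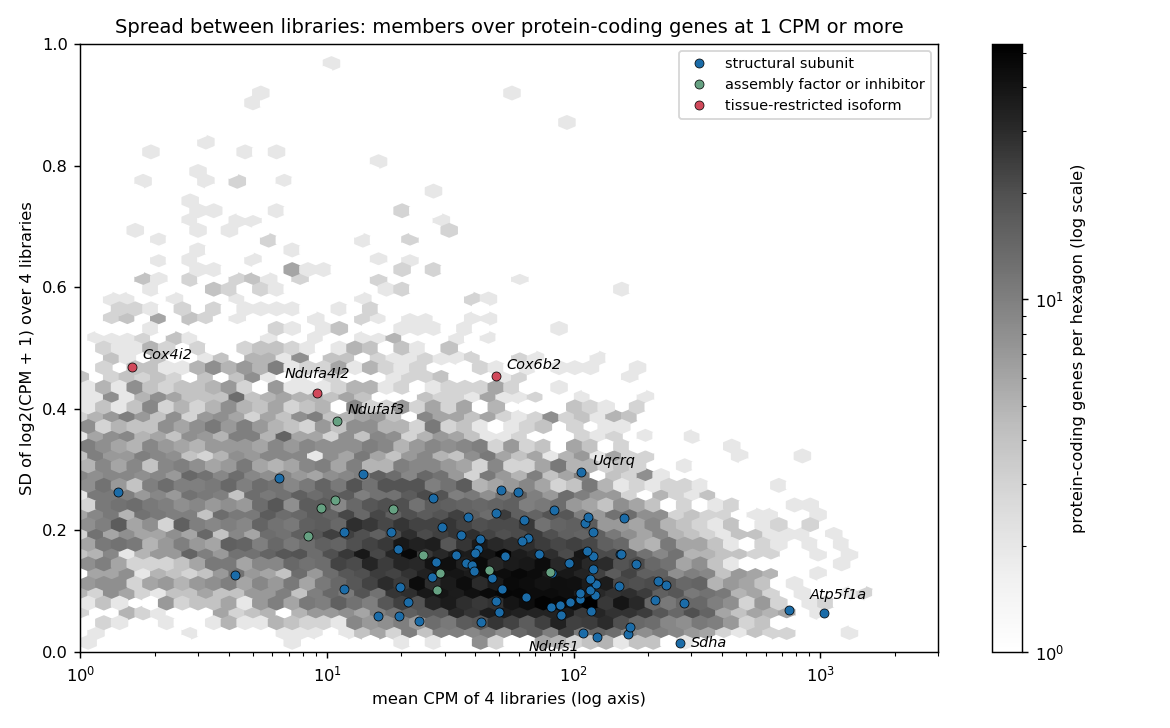
SD of log2(CPM + 1) over the 4 libraries against mean CPM (log axis) for the 90 members at 1 CPM or more, coloured by kind, over all protein-coding genes as hexagons shaded by their number (genes with an SD above 1 lie outside the axis). Cox6b2, Cox4i2 and Ndufa4l2 lie highest among the members, and Sdha, at 0.0144, lies lowest.

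To see which members set a library apart, each was tested against the remaining 3 in edgeR (quasi-likelihood, p-values adjusted after Benjamini and Hochberg over 17398 genes); a single library's spread is taken to equal that of the others. No member of 94 tested was called in any of the 4 comparisons at an adjusted p of 0.05, and of all genes 0% were called in each. At an unadjusted p of 0.05, members called numbered 2, 2, 0 and 0 in libraries 1 to 4 (2.13%, 2.13%, 0% and 0%), against 926, 1284, 274 and 269 of all genes (5.32%, 7.38%, 1.57% and 1.55%). They were Uqcrq and Cox7a1, higher in library 1, and Cox6b2 and Ndufa7, lower in library 2. By the Wald test of DESeq2 no member was called either, against 8, 68, 3 and 3 of all genes (0.046%, 0.391%, 0.0172% and 0.0172%).

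The edgeR counts depended on which libraries were compared. Leaving out library 3 gave 4 members called in library 1, Cox4i2, Cox5a, Cox6b2 and Uqcrq, all higher, against 2206 of all genes (12.4%). Leaving out library 4 gave 5 members called in library 2, Atp5mc1, Cox5a, Cox6b2, Ndufa7 and Uqcrq, all lower, against 2552 of all genes (14.4%). These members were named after their values were seen. Leaving out library 1 gave 1303 genes called in library 3 (7.35%) and leaving out library 2 gave 1386 in library 4 (7.8%), with 0 members in each. With no filter on low counts, Cox6b2 was called in library 2, against 469 of 39251 genes (1.19%), and 0 members in libraries 1, 3 and 4, against 0.836%, 0.00255% and 0.0153% of all genes.

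The member with the lowest p in library 1 was Uqcrq, with a log2 fold change of 0.46 and adjusted p = 0.723 (edgeR). In library 2 it was Cox6b2, at -0.77 and adjusted p = 0.626 (edgeR). Ndufaf6, an assembly factor of complex I, was at 0.39 in library 3 and Ndufa4l2 at -0.81 in library 4, both with adjusted p = 1.00 (edgeR). The 4 comparisons share their libraries and are not independent.

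Although no member passed, the members leaned one way in libraries 1, 2 and 4. The log2 fold change was positive in 83 of 94 members in library 1, with a median of 0.13, and in 21 of 94 in library 2, with a median of -0.12. The median over all genes was -0.01 in library 1 and -0.02 in library 2, with 49.2% and 48.1% of all genes positive. In library 3 the median of the members was 0.03 with 56 of 94 positive, and in library 4 it was -0.06 with 21 of 94 positive. The median over all genes was -0.01 in each, with 47.4% of all genes positive in library 3 and 47.6% in library 4. The order of the libraries was that of the summed pluripotency markers and the reverse of that of the summed parietal endoderm markers. Their part in the result was not tested.

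Transcript length moved with the same pattern. Taken as the deviation of log2(CPM + 1) from the mean of the 4 libraries, 83 members at 10 CPM or more had medians of 0.14, -0.14, 0.05 and -0.05 in libraries 1 to 4. The 9524 other protein-coding genes had 0.02, -0.04, 0.02 and -0.01, but members are short, with a median transcript of 758 nt against 2997 nt. Among transcripts under 600 nt, the medians in libraries 1 and 2 were 0.18 and -0.18 for 29 members, and 0.18 and -0.15 for 100 other genes. From 600 to under 1000 nt they were 0.12 and -0.13 for 24 members, and 0.13 and -0.13 for 454 other genes. From 1000 to under 2000 nt they were 0.12 and -0.10 for 24 members, and 0.09 and -0.10 for 2002 other genes. Only 6 members had 2000 nt or more, with 0.05 and -0.08, against -0.01 and -0.01 for 6968 other genes. Below 2000 nt the medians of members and other genes of like length were thus close, while the shares with a positive deviation were further apart. In library 1 the deviation was positive in 100% of members and 87% of other genes under 600 nt, in 100% and 78.6% from 600 to under 1000 nt, and in 95.8% and 72.0% from 1000 to under 2000 nt. In library 2 it was positive in 0% of members and 18% of other genes under 600 nt, in 8.33% and 21.6% in the next range, and in 4.17% and 25.9% in the last. These shares were not tested against each other, nor was the part of length in the lean. By complex, the structural subunits of complex IV had the highest median in library 1, at 0.18, and those of complex III the lowest in library 2, at -0.17. The subunits of complex II, which include long transcripts, lay nearest to 0 in both libraries, with 0.09 and -0.08.

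**Figure D5:**
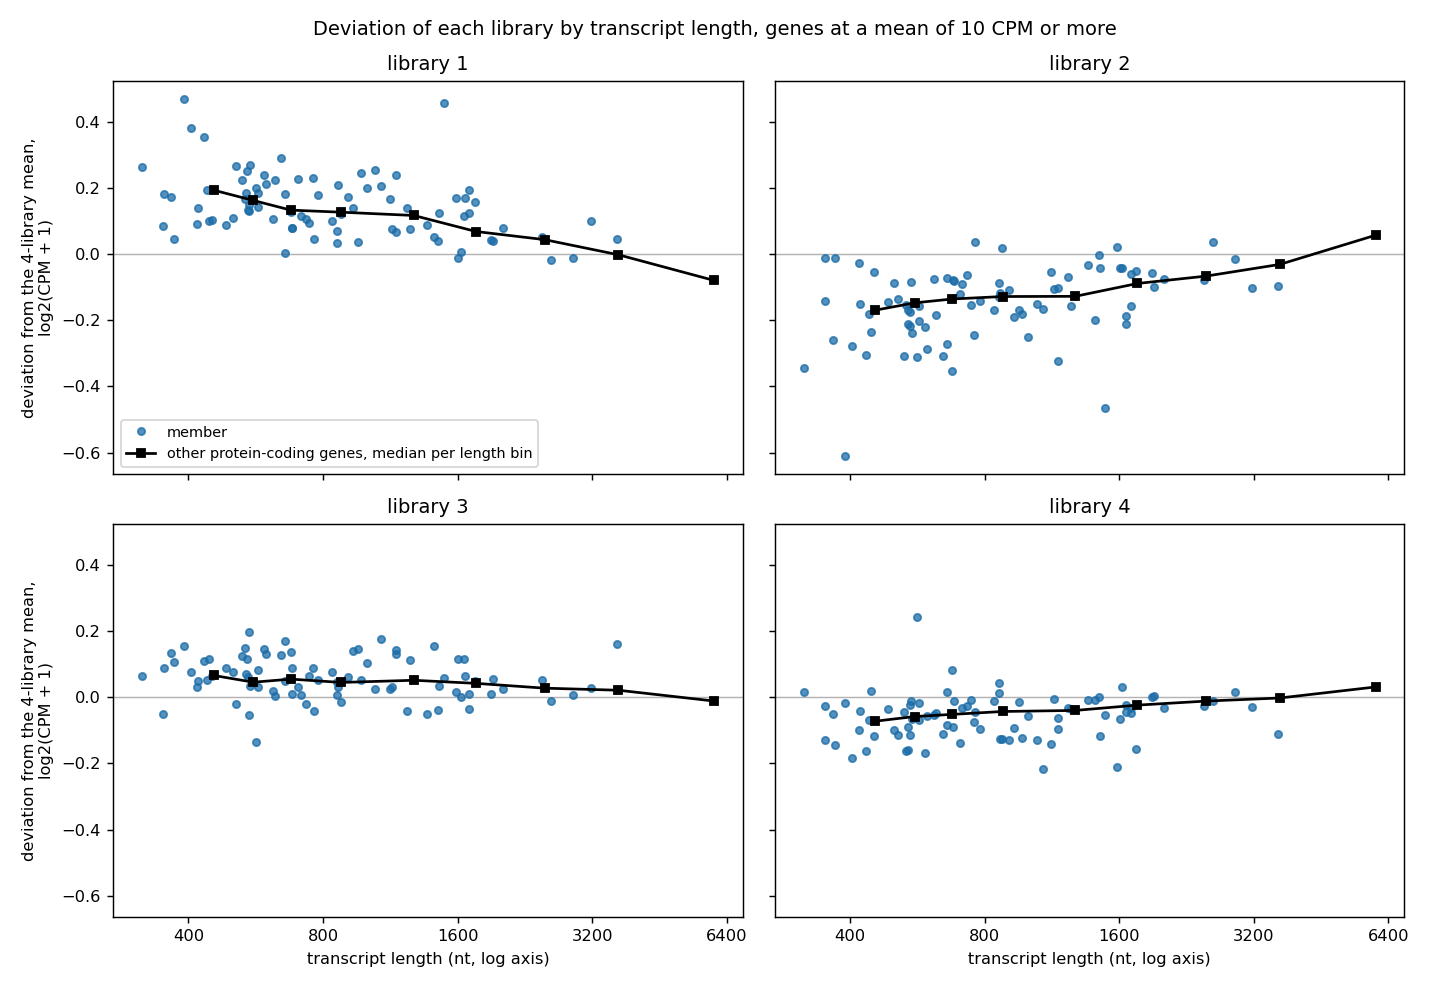
Deviation of log2(CPM + 1) from the 4-library mean against transcript length in nt (log axis), 1 panel per library; dots are 83 members at 10 CPM or more, and squares are medians of the other protein-coding genes per length bin. In libraries 1 and 2 both depart from 0 in opposite directions at short lengths, by 0.18 and -0.18 for members under 600 nt.

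The genes around the chain were measured too. All 20 electron carriers and quinone-linked enzymes listed were expressed, from Coq8a, which supports ubiquinone synthesis, at 4.58 ± 1.72 TPM to Cyc1. Of 10 regulators of respiratory genes 8 were expressed: Esrrb, which is also a pluripotency factor, was the highest at 239 ± 46.1 TPM, and the coactivator Ppargc1a, typical of tissues with many mitochondria, had 8, 4, 0 and 4 counts. Of 10 genes for mitochondrial DNA expression 9 were expressed, with Tfam, which packages that DNA, at 59.6 ± 3.54 TPM. The exception, Slirp, had 6, 2, 3 and 3 counts, and 97.5% of its transcript lies under exons of other genes. Of 6 genes for uncoupling and nucleotide exchange 4 were expressed, with the adenine nucleotide carrier Slc25a5 at 790 ± 31.6 TPM the highest and Ucp3, known from muscle, the lowest with 10, 0, 2 and 5 counts.

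Promoters were read as windows of 300 bases, 250 before and 50 after each start, from RefSeq (GRCm38.p6), and 79 members had one. Of 83 windows compared, 64 had their last 25 bases in the transcript used here for the member. In the rest the start may differ from that of the transcript. A gene was counted if any of its windows held the letters. The core letters of the NRF1 site, GCATGCGC, were found on either strand in 12 of 79 members (15.2%). They were found in 605 of 9867 expressed protein-coding genes (6.13%) and 824 of all 27025 genes with a window (3.05%). The YY1 letters GCCATNTT were found in 25.3% of members, 9.79% of expressed genes and 6.96% of all genes with a window. The ETS letters CCGGAAG, of the family of GABPA, were found in 24.1%, 19.9% and 9.93%. No motif contains another, and a match is a description and no evidence of binding. The regulators named for these letters, Nrf1, Yy1 and Gabpa, were all expressed.

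Members of 4 complexes that held the NRF1 letters before their start are shown, with the letters in capitals; 10 capitals are the palindrome that holds them on both strands.
Ndufa6, complex I (chr15:82354356-82354385, minus strand): tccgcggtagaGCATGCGCattgcagagcc
Sdhb, complex II (chr4:140961206-140961235, plus strand): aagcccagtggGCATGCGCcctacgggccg
Cox6a1, complex IV (chr5:115349101-115349130, minus strand): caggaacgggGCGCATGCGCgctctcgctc
Atp5mc2, complex V (chr15:102671070-102671099, minus strand): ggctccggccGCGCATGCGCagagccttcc
These members averaged 187, 176, 478 and 804 TPM in the order shown. Each was picked as the highest by mean TPM in its complex among the 9 members with the letters before their start. Those not shown averaged from 18.1 TPM (Ndufaf4) to 170 TPM (Ndufa8).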

How the data were processed

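The authors deposited 1 table of raw, unnormalized gene counts per library. Per the submitters' processing notes, STAR, featureCounts and GRCm39 were used, with no version, annotation or counting setting given. Of the counts from 1 to 8, 60.0% to 62.6% were even, and whether both ends of a pair were counted is not stated; counts and limits may then stand for fewer fragments.

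Gene types and lengths came from GENCODE M21 (GRCm38), so no coordinates of the files are given. Ndufb1, Ndufb4b and Ndufb4c, which it does not type as protein-coding, were kept on their RefSeq type. The length was that of the basic coding transcript with the longest coding sequence, ties going to the shortest transcript. Levels and ranks of single members in TPM rest on this length, and some differ with other lengths. TPM and CPM were computed from the deposited counts. A test of every library against the remaining ones used edgeR 4.0.16 (TMM, filterByExpr) and, as an alternative, DESeq2 1.42.0, in R 4.3.3. The edgeR steps were run on simulated counts with a biological coefficient of variation below the common value of these data, 0.205. That run therefore does not show the power of the tests here. Copies were found with blastn 2.17.0. Other steps ran in Python 3.11.15 with pandas 2.3.3, numpy 2.4.6, matplotlib 3.10.9 and SciPy 1.17.1.

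The members and lists were chosen with earlier results of these data known. The genes named are the core subunits, the 2 highest and 2 lowest of each complex, both genes of each pair, members at 3 counts or fewer, the 3 steadiest and 3 most variable at 10 CPM or more, the member with the lowest p in each comparison, and the ends of each list; all others named were picked with their values in view, and 1 gene is not reported here. The alternatives tried were CPM, other pseudocounts, thresholds and scalings, no filter, leaving out libraries and, added after seeing the data, 2 other lengths.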

Additional observations from a re-analysis of the deposited data

Results flagged for a closer look

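In 5 of 95 members (5.26%) 1 library stood apart from the other 3 by more of the range of the 4 values than Dixon's 95% critical value allows, and chance gives about 1 in 20. Library 1 was high in Ndufs5, with 36.9 TPM against 26.0, 24.3 and 24.2 TPM in libraries 2 to 4, and in Ndufs6, a zinc-binding subunit of complex I, with 214 TPM against 174, 179 and 173 TPM. Library 2 was low in Ndufaf2, an assembly factor of complex I, with 49.8 TPM against 65.5, 67.7 and 67.0 TPM in libraries 1, 3 and 4, and in Sdhb, with 169.5 TPM against 178, 177 and 178 TPM. Library 3 was low in Uqcrfs1, with 142 TPM against 152, 152 and 151 TPM in libraries 1, 2 and 4.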

How the results depend on the processing

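No paired analysis was possible because the 4 libraries form 1 group. Leaving out 1 other library at a time, called members ranged from 0 to 4 in library 1 and from 0 to 5 in library 2, and were 0 in libraries 3 and 4; the calls of library 1 came without library 3, and those of library 2 without library 4. Without a filter on low counts 1 member was called in library 2. The median member level was 7.23 on the log2(TPM + 0.1) scale, 7.19 to 7.24 leaving out a library, 5.59 by CPM and 6.99 with the union of exons; CPM leaves out length and the union is longer. The log2 ratio of Cox7a2l to Cox7a2 reversed to 0.35 by CPM, and that of Atp5mc2 to Atp5mc3 to -0.46 by CPM, -0.0796 with the union of exons and -0.48 with the longest transcript. The members expressed ranged from 88 by CPM to 93. The other 9 pairs kept their sign in each setting tried. Depth limits Cox8b and Cox8c, at 0 to 2 counts a library.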
